A study of Homo sapiens with 2 samples.

Results

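The genes described here are 34 genes of the DNA damage kinases, of homologous recombination and of the Fanconi pathway, given by symbol. Each symbol matched 1 row of a table of 62700 Ensembl genes, so that all 34 were found, and all 34 had at least 100 counts summed over both libraries. The table holds the poly(A) RNA of K562, an erythroid-like cell line from a human chronic myeloid leukemia, in 2 libraries. Both were made from cells labelled WT with the genotype E50_dCas9-KRAB, in which the labels do not say what E50 is. dCas9-KRAB is a Cas9 without nuclease activity, joined to a repressor domain that lowers transcription where a guide RNA places it (CRISPR interference). One library had the guide sgRNA_Control and the other the guide sgRNA_SMC1A, against a core subunit of the cohesin ring. In both, the guide came by lentivirus with a blue fluorescent marker, 1 µg/ml puromycin was given from day 2 to day 6, and cells bright for the marker were sorted at harvest. The labels give no guide sequence and no second guide.

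A break in both DNA strands is bound by the MRE11, RAD50 and NBN complex, which activates the kinase ATM, while single-stranded DNA at stalled forks or resected ends activates ATR through ATRIP. The ends are then cut back, BRCA1, PALB2 and BRCA2 load the recombinase, and its paralogs, a translocase and helicases carry the strand exchange to an end. The Fanconi pathway unhooks crosslinks between strands: a core complex attaches ubiquitin to FANCD2 and FANCI, and the repair then passes to the recombination genes. Cohesin holds sister chromatids together, and the sister is the usual template for this repair, so the question taken up here is what the RNA of these genes did when SMC1A was lowered.

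The libraries held 18349209 counts (control guide) and 16864207 counts (SMC1A guide). SMC1A itself was at 460.4 CPM and 16.3 CPM (counts scaled by library size), which leaves 3.56% of the control level. Of 10 markers of K562 and erythroid cells, 0 were at 0 in either library, although HBG1, HBZ and TFRC had less than 0.5 of their control level. The 8 lymphocyte markers summed to 19.2 and 27.6 CPM, most of it CD3D (14.5 and 18.4 CPM) and CD3G (3.13 and 7.48 CPM). CD4, CD8A and MS4A1 were at 0 in both libraries. The 6 monocyte and granulocyte markers summed to 19.0 and 26.3 CPM, most of it LYZ (18.2 and 24.3 CPM). MPO and ELANE were at 0 in both. The 7 fibroblast and epithelial markers summed to 1069 and 1092 CPM, most of it KRT8, KRT18 and EPCAM, while COL3A1 had 2 and 154 counts and COL1A1 64 and 233. The part of other cells in the results was not tested. With 1 library per guide no test across samples is possible and no p-value is given. Each log2 ratio (SMC1A guide over control guide) has an exact 95% interval that covers counting error only, and each difference is between these libraries.

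None of the 34 genes reached a 2-fold difference. In bulk RNA, fewer cells in a state that uses a gene and less RNA of it per cell cannot be told apart. Over all 11321 genes with at least 100 counts, 5.11% passed 2-fold upward and 2.32% downward. The ratios of the 34 ran from -0.65 (XRCC3) to 0.46 (ATM), with a median of -0.10 against -0.05 over all genes with 100 counts. With libraries scaled by their totals alone, the median of the 34 was 0.03 and that of all genes 0.08, since this scaling moves the median of all genes by 0.13. The standard deviation of the log2 ratios was 0.32 over the 34 and 0.64 over all genes with 100 counts. At least 500 counts were reached by 32 of the 34, against 8425 of the 11321 genes. Neither the spread nor the 2-fold shares were computed at matched depth.

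A smaller limit, 25% higher or 20% lower (the same step on the log scale), was passed upward by 3 of the 34 (8.82%; background 21.9%), ATM, TP53BP1 and FANCL. It was passed downward by 9 (26.5%; background 24.5%): XRCC3, BLM, FANCE, FANCF, XRCC2, CHEK1, EXO1, CHEK2 and PALB2. Among genes with at least 500 counts the background was 15.9% upward and 25.8% downward. The share of lower genes was thus close to the background, and the share of higher genes was below it, a difference that could not be tested with 1 library per guide. By library totals the split was 7 higher and 7 lower, against 29.6% and 15.4% of all genes. The whole counting interval lay above 0 for 10 of the 34 (background 29.4%) and below 0 for 14 (background 38.7%), both close to the background. By library totals the counts were 14 above and 13 below, and with a 99% interval 7 above and 14 below. As a share of all counts, which amounts to scaling by library totals, the 34 genes took 0.247% of the control library (exact 95% interval 0.244 to 0.249). They took 0.256% of the SMC1A library (0.254 to 0.259). On the TMM scale their summed level was 2579 and 2451 CPM, so the direction of the sum depends on the scaling.

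**Figure D1:**
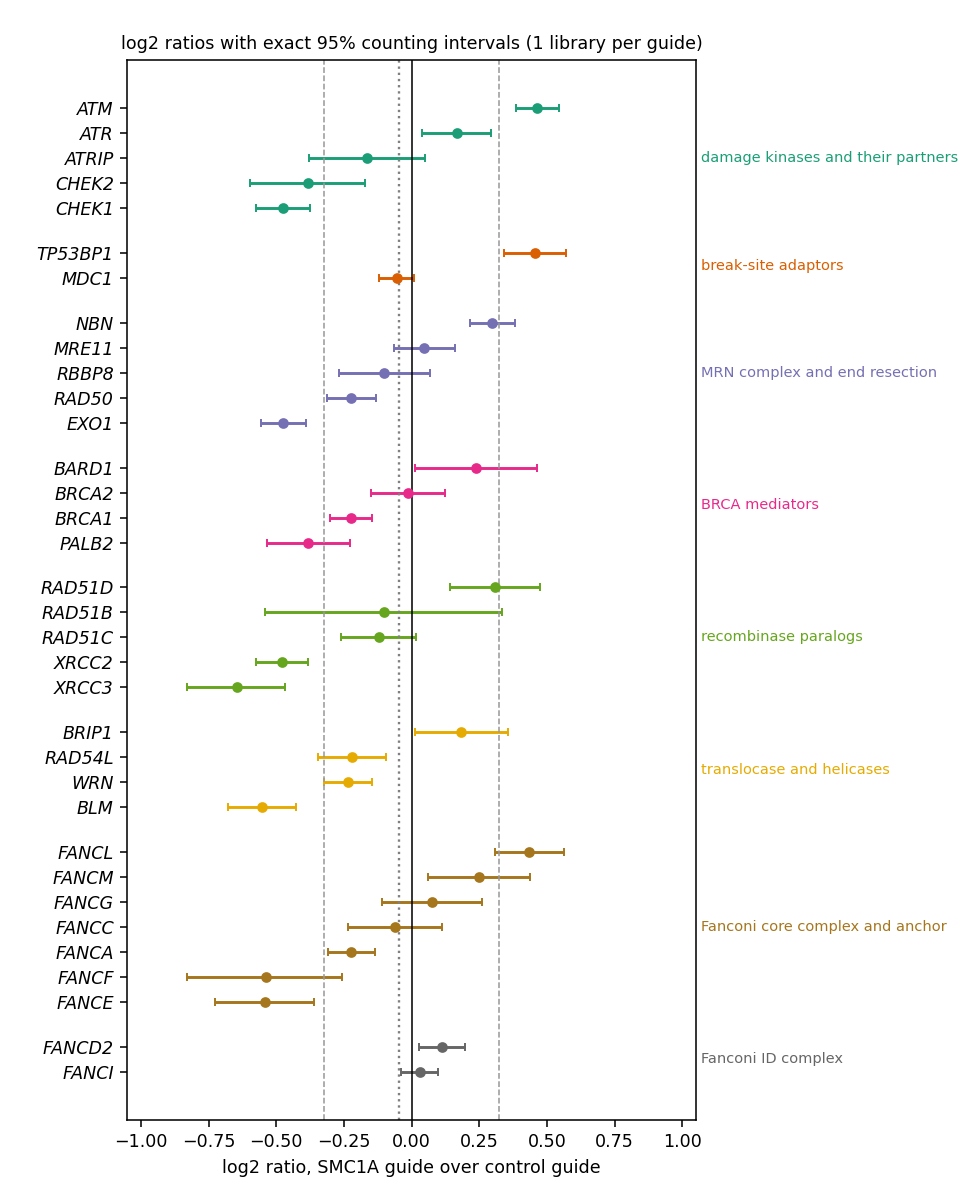
log2 ratio (SMC1A guide over control guide) of each of the 34 genes, by role, with exact 95% counting intervals from 1 library per guide. The solid line is 0, the dotted line the median of all genes with 100 counts (-0.05) and the dashed lines the limits of 25% higher and 20% lower, which ATM, TP53BP1 and FANCL pass on the right and XRCC3 passes farthest on the left.

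ATM and XRCC3 stood at the 2 ends, and the promoters of this pair are shown because they bound the range of the members. The sequences are RefSeq windows of 300 bases (GRCh38.p14), from 250 bases before the gene's start to 50 after it, read along the gene's strand. Capitals mark matches, on either strand, to letters searched for 4 kinds of motif: CCAAT (NF-Y), TTTGAA (the CHR element of cell cycle genes), CTTCCGG (ETS factors) and, for E2F, TTCCCGC or else TTGGCGC or else TTCGCGC or else TTGCCGC.
ATM, chr11:108222817-108223116, plus strand: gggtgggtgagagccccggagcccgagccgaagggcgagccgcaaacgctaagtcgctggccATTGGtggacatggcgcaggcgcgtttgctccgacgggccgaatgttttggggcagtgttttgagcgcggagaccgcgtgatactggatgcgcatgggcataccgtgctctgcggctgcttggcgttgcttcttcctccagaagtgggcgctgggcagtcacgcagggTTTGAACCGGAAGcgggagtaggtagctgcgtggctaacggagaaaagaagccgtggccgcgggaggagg
XRCC3, chr14:103715402-103715701, minus strand: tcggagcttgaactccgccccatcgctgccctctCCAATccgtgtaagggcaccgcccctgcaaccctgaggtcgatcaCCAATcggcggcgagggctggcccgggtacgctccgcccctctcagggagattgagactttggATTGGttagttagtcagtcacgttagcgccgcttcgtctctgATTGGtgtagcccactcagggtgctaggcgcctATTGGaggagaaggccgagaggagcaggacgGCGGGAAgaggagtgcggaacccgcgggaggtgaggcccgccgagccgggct
The ATM window holds 1 CCAAT match, read as its reverse complement, and 1 TTTGAA match that stands directly before 1 ETS match. The XRCC3 window holds 5 CCAAT matches, 2 on the printed strand and 3 on the other, and 1 E2F match close to the gene's start. A match is only a run of letters, and no factor was measured at these sites.

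Of the kinases, ATM (ENSG00000149311.20, chromosome 11, 108222484 to 108369102, GENCODE 29 on GRCh38), which signals double-strand breaks, had 2133 counts under the control guide against 2959 with the SMC1A guide. That is 121.6 and 167.8 CPM, 1.38-fold higher with the SMC1A guide (log2 ratio 0.46, interval 0.38 to 0.55), or a ratio of 0.30 once trends with exon length and GC content were removed, which is short of 25% higher. ATR, the kinase of stalled forks, was at 54.3 and 61.0 CPM (log2 ratio 0.17, interval 0.04 to 0.29). Its obligate partner ATRIP was at 21.6 and 19.3 CPM, with an interval that spans 0 (-0.38 to 0.05).

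The downstream kinase genes stood on the other side of 0. CHEK1, the effector kinase of ATR (ENSG00000149554.15, chromosome 11, 125625136 to 125676255), was at 110.8 CPM under the control guide against 79.7 CPM under the SMC1A guide. It was 1.39-fold lower (log2 ratio -0.47, interval -0.57 to -0.38). CHEK2, the effector kinase of ATM, was at 24.3 and 18.7 CPM (log2 ratio -0.38, interval -0.60 to -0.17). The upstream kinase genes ATM and ATR were thus higher and the effector kinase genes CHEK1 and CHEK2 lower, in each of the scalings tried.

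TP53BP1 and MDC1 encode adaptors that gather at marked chromatin around a break, and TP53BP1 shields the ends from resection. TP53BP1 (ENSG00000067369.14, chromosome 15, 43403061 to 43510728) had 1071 and 1476 counts. Its level was 61.0 CPM under the control guide against 83.7 CPM under the SMC1A guide, or 1.37-fold higher (log2 ratio 0.45, interval 0.34 to 0.57). MDC1, the ATM-bound scaffold, was the most counted of the 34 genes, with 3960 and 3833 counts, 225.7 and 217.3 CPM. Its ratio of -0.05 had an interval that spans 0, and it was 0.07 by library totals.

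The genes of the MRN complex differed among themselves. NBN, which brings ATM to the complex, was at 121.1 CPM under the control guide against 148.8 CPM under the SMC1A guide (log2 ratio 0.30, interval 0.21 to 0.38). RAD50, the ATPase that tethers the ends and is itself related to the SMC proteins, was at 125.7 and 107.7 CPM (log2 ratio -0.22, interval -0.31 to -0.13). MRE11, the nuclease, was at 71.7 and 74.0 CPM, with an interval from -0.07 to 0.16. The 3 subunits of 1 complex therefore had 1 ratio above 0, 1 below 0 and 1 that could not be told from 0 on the TMM scale. By library totals MRE11 was at 0.18, above the upper end of that interval.

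In resection, the long-range nuclease gene EXO1 stood apart from the starter gene RBBP8. EXO1 (ENSG00000174371.17, chromosome 1, 241847967 to 241895148) had 2828 and 2046 counts. Its level was 161.2 CPM under the control guide against 116.0 CPM under the SMC1A guide, or 1.39-fold lower (log2 ratio -0.47, interval -0.56 to -0.39). RBBP8, which encodes CtIP, the cofactor of MRE11, was at 34.4 and 32.0 CPM with an interval that spans 0, and its ratio of -0.10 was 0.03 by library totals.

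Of the BRCA mediators, BRCA1, a ubiquitin ligase that promotes resection, was at 165.7 CPM under the control guide against 142.0 CPM under the SMC1A guide (log2 ratio -0.22, interval -0.30 to -0.15). Its ring partner BARD1 was at 17.3 and 20.4 CPM, with a ratio of 0.24 and an interval that only just lies above 0 (0.01 to 0.46). PALB2, the bridge from BRCA1 to BRCA2 (ENSG00000083093.11, chromosome 16, 23603160 to 23641310), had 805 and 621 counts and was 1.30-fold lower (log2 ratio -0.38, interval -0.54 to -0.23). BRCA2, which loads the recombinase, had 881 and 877 counts, 50.2 and 49.7 CPM. No difference in BRCA2 was detectable, with an interval of -0.15 to 0.12.

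The recombinase paralogs, which form small complexes that steady the filament, had ratios from -0.65 to 0.31. XRCC3 (ENSG00000126215.14, chromosome 14, 103697609 to 103715504), the partner of RAD51C in one complex, had 645 counts under the control guide against 414 with the SMC1A guide. Its level was 36.8 and 23.5 CPM, 1.56-fold lower (log2 ratio -0.65, interval -0.83 to -0.47), the lowest ratio of the 34. XRCC2 (ENSG00000196584.4, chromosome 7, 152644779 to 152676165), a member of the other complex, had 2065 and 1489 counts and was 1.39-fold lower (log2 ratio -0.48, interval -0.58 to -0.38).

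The other 3 paralogs were spread. RAD51D, the direct partner of XRCC2, was at 30.4 CPM under the control guide against 37.6 CPM under the SMC1A guide (log2 ratio 0.31, interval 0.14 to 0.47). RAD51C, which takes part in both complexes, was at 50.5 and 46.4 CPM, with an interval from -0.26 to 0.02. RAD51B had 93 and 87 counts, 5.30 and 4.93 CPM, and its wide interval of -0.54 to 0.33 leaves no difference detectable at this depth, and it includes the ratio of XRCC2.

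Among the translocase and helicase genes, BLM (ENSG00000197299.13, chromosome 15, 90717327 to 90816165), the Bloom syndrome helicase that dissolves crossed strands, had 1286 and 881 counts. It stood at 73.3 CPM under the control guide against 50.0 CPM under the SMC1A guide, or 1.47-fold lower (log2 ratio -0.55, interval -0.68 to -0.43). The Werner syndrome helicase gene WRN was at 130.3 and 110.7 CPM (log2 ratio -0.24, interval -0.32 to -0.15). RAD54L, the translocase of the recombinase filament, was at 62.5 and 53.7 CPM (log2 ratio -0.22, interval -0.35 to -0.09). BRIP1, a helicase that binds BRCA1 and is also a Fanconi gene, was at 30.1 and 34.2 CPM, with a ratio of 0.18 and an interval of 0.01 to 0.36. The 3 lower genes of this role kept a ratio below 0 under each setting tried, but WRN shrank to -0.11 by library totals and -0.10 with the trend with expression level removed, and RAD54L to -0.09 and -0.13.

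In the Fanconi core complex and its anchor, FANCL and FANCM had intervals above 0, FANCE, FANCF and FANCA below 0, and FANCC and FANCG intervals that span 0. FANCL (ENSG00000115392.13, chromosome 2, 58159243 to 58241372), which carries the ubiquitin ligase activity, had 896 counts under the control guide against 1218 with the SMC1A guide. Its level was 51.1 and 69.1 CPM, 1.35-fold higher (log2 ratio 0.43, interval 0.31 to 0.56). FANCM, the translocase that anchors the complex on DNA, was at 24.6 and 29.3 CPM (log2 ratio 0.25, interval 0.06 to 0.44).

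FANCE and FANCF, which link the core complex to its substrate and to the anchor, were both lower. FANCE (ENSG00000112039.6, chromosome 6, 35452356 to 35467103) had 607 and 419 counts, 34.6 and 23.8 CPM, 1.46-fold lower (log2 ratio -0.54, interval -0.73 to -0.36). FANCF (ENSG00000183161.6, chromosome 11, 22622890 to 22625841) had 252 and 174 counts, 14.4 and 9.87 CPM, 1.45-fold lower (log2 ratio -0.54, interval -0.83 to -0.26). FANCC, which forms a subcomplex with FANCE and FANCF, was at 31.6 and 30.3 CPM with an interval that spans 0 (-0.23 to 0.11), and its ratio of -0.06 was 0.07 by library totals. FANCA was at 129.7 and 111.2 CPM (log2 ratio -0.22, interval -0.31 to -0.13), and its direct partner FANCG at 26.8 and 28.2 CPM, with an interval of -0.11 to 0.26.

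The substrates of the core complex were FANCD2 and FANCI, whose ratios were small on the TMM scale. FANCD2 had 2133 and 2318 counts, 121.6 and 131.4 CPM (log2 ratio 0.11, interval 0.03 to 0.20). FANCI, its partner in the ID clamp on DNA, had 3420 and 3512 counts, 194.9 and 199.1 CPM, with an interval of -0.04 to 0.10. Their ratios of 0.11 and 0.03 were 0.24 and 0.16 by library totals, and 0.25 and 0.21 with the trend with expression level removed.

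**Figure D2:**
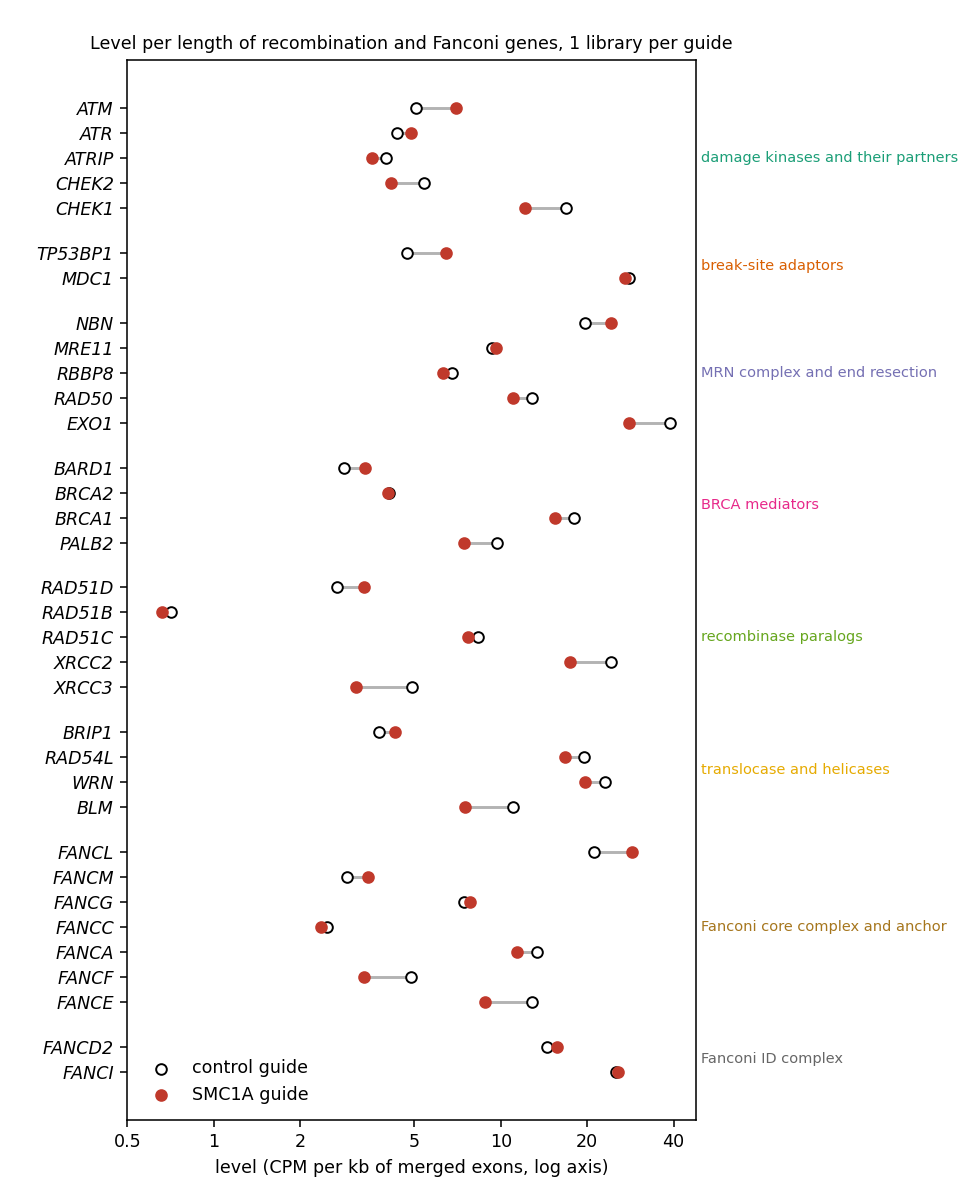
Level of each of the 34 genes per kb of merged exons (log axis), by role, with the control guide (open circles) and the SMC1A guide (filled circles), 1 library each. EXO1 lies highest with the control guide at 38.9, RAD51B lowest at 0.709, and most pairs of circles lie close together.

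Levels were compared between genes per kb of merged exons, in CPM per kb. With the control guide the order ran from EXO1 (38.9), MDC1 (28.0), FANCI (25.1) and XRCC2 (24.3) down to RAD51D (2.69), FANCC (2.47) and RAD51B (0.709). With the SMC1A guide FANCL (28.6) and EXO1 (28.0) led, followed by MDC1 (27.0) and FANCI (25.6), and RAD51B (0.660) was again lowest. FANCL moved from the sixth place to the first, and XRCC3 from place 23 (4.90 CPM per kb) to place 32 (3.13). Merged exons include rare transcripts, which lowers the level of genes such as ATM, whose merged exons span 23972 bases and whose longest annotated transcript has 13147. Per kb of the longest transcript, EXO1 was again highest with the control guide (46.4) and RAD51B lowest (2.04), but FANCL stood at place 3 (30.1) and CHEK1 at place 5 (26.7; place 10 per kb of merged exons), so places within the order depend on the length used.

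Proteins of 1 complex are made in set proportions, so the counts of partner genes were also divided by each other within each library, which needs no scaling. Of the 14 pairs compared, 12 had a counting interval of the change that excludes 0. The same holds for 65.8% of all 561 pairs of the 34 genes and for 67.6% of all pairs of genes with 100 counts, so an interval off 0 is common at this depth and does not set partner genes apart. Some of the 14, such as BLM with WRN or ATM with ATR, are related in role and are not subunits of 1 complex. The exceptions were CHEK1 per CHEK2 (4.55 and 4.27, log2 change -0.09, interval -0.32 to 0.14) and FANCD2 per FANCI (0.624 and 0.660, log2 change 0.08, interval -0.03 to 0.19).

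Among the paralogs there were 0.258 RAD51D counts per XRCC2 count under the control guide against 0.445 under the SMC1A guide, a 1.73-fold change and the greatest of the 14 (log2 change 0.79, interval 0.60 to 0.98). RAD51C per XRCC3 went from 1.37 to 1.98 (log2 change 0.53, interval 0.30 to 0.75). NBN per RAD50 was 0.964 and 1.38 (log2 change 0.52, interval 0.40 to 0.64), while MRE11 per RAD50 was 0.571 and 0.687 (0.27, interval 0.13 to 0.41). Within MRN, RAD50 was thus lower relative to both of the others in the SMC1A library than in the control library. It still had more counts than MRE11 in both libraries.

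BRCA1 and TP53BP1 are known to act against each other in the choice between resection and end protection. There were 2.71 BRCA1 counts per TP53BP1 count under the control guide against 1.70 under the SMC1A guide, a 1.60-fold lower balance (log2 change -0.68, interval -0.82 to -0.54). MDC1 per TP53BP1 was 3.70 and 2.60, and BRCA1 per BARD1 9.59 and 6.97 (log2 change -0.46, interval -0.69 to -0.23). The remaining pairs changed by less than BRCA1 per BARD1 but by more than MRE11 per RAD50 (log2 change 0.27). ATR per ATRIP was 2.51 and 3.16, ATM per ATR 2.24 and 2.75, and BRCA2 per PALB2 1.09 and 1.41. FANCA per FANCG was 4.84 and 3.94, and BLM per WRN 0.563 and 0.451.

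**Figure D3:**
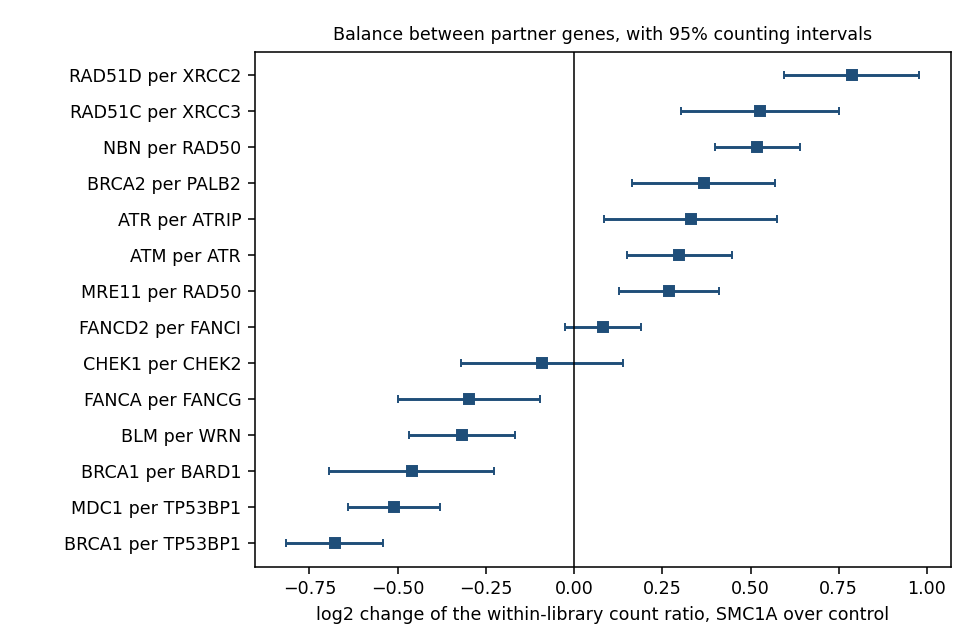
log2 change, from the control to the SMC1A library, of the count ratio of 14 gene pairs, with 95% counting intervals. RAD51D per XRCC2 lies farthest right at 0.79 and BRCA1 per TP53BP1 farthest left at -0.68, and 2 of the 14 intervals span 0.

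Neighbours on the other strand that share a start region with a member were also looked for. In the GENCODE 29 annotation 19 of the 34 genes had such a gene whose outermost start lay within 1000 bases, and for 8 of them this neighbour had at least 100 counts. Of these 8 pairs, 5 had both ratios on the same side of 0, but in 3 of the 5 the interval of MRE11, ZFYVE21 or DCTN5 spans 0. None of these shares was computed over all genes, so they do not set the 34 apart. ATM is paired with NPAT, a histone gene activator whose start lies 158 bases from the outermost ATM start, which is not the start of the printed ATM window. NPAT was at 58.6 and 51.1 CPM (log2 ratio -0.20, interval -0.33 to -0.07), on the other side of 0 from ATM (0.46). TP53BP1 is paired with MAP1A, a microtubule-binding protein gene 230 bases away, which had 1510 and 3653 counts. MAP1A was at 86.1 CPM under the control guide against 207.1 CPM under the SMC1A guide (log2 ratio 1.27, interval 1.18 to 1.35), past the 2-fold limit and on the same side as TP53BP1 (0.45).

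The other pairs were spread. XRCC3 had ZFYVE21 (-0.21), PALB2 had DCTN5 (-0.05, with an interval that reaches 0.01), MRE11 had ANKRD49 (0.41) and FANCM had FKBP3 (0.34). BRCA1 was at -0.22 and NBR1, which starts near the outermost annotated BRCA1 start, at 0.33. The rule of outermost starts leaves out NBR2, annotated as a bidirectional promoter RNA that overlaps BRCA1 on the opposite strand. NBR2 had 128 and 93 counts (log2 ratio -0.46), on the same side of 0 as BRCA1, so the BRCA1 pair depends on the start used. CHEK2 was at -0.38 and HSCB at 0.08 on 99 and 105 counts, with an interval that spans 0. FANCF had GAS2 at 16 and 78 counts, under the limit of 100 counts, and was chosen with its counts in view.

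Annotated spans of 12 of the 34 genes overlap another gene with 100 counts, on the opposite strand for most. The 12 include ATM, TP53BP1 and FANCL, the 3 that were at least 25% higher. The share of all genes with such an overlap was not computed. The overlap was 159 bases of ATM with NPAT (-0.20), 6711 bases of TP53BP1 with TUBGCP4 (-0.50) and 678 bases of FANCL with VRK2 (-0.01). XRCC3 overlaps KLC1 (0.19) over 16641 bases. In these 4 pairs the neighbour's ratio was far from that of its member, while FANCA (-0.22) and ZNF276 (-0.20), which overlap over 3355 bases, had nearly the same ratio. The kit kept the strand, but the sources used here do not give the strand setting of the counting, so reads of overlapping exons may be shared. Without the 12 genes, 0 of 22 were at least 25% higher and 6 at least 20% lower. Pseudogene copies of CHEK2, MRE11, RBBP8, BRCA1 and FANCD2 named after them in the table had 0 counts in both libraries.

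Sequence features of the 34 were compared with their ratios, as a description over genes that share the same libraries. The log2 ratio was higher in genes with longer merged exons over the 34 (Pearson r = 0.43, Spearman rho = 0.44, n = 34), and this was weak over all annotated genes with 100 counts (r = 0.07, rho = 0.09, n = 11088). The 17 members with the longer exons had a median ratio of 0.03 and the 17 with the shorter a median of -0.24. Split at the same length, all genes had medians of 0.01 (n = 3081) and -0.08 (n = 8007). ATM, TP53BP1, RAD51D and ATR were long and above 0, and FANCE, FANCF and EXO1 short and below 0, while FANCL, at 2412 bases the shortest of all 34, was above 0. Other members did not follow the trend: XRCC3, the lowest ratio of all, was among the 17 longer (7507 bases), as were BRCA1, FANCA and RAD50 (9187 to 9771 bases, each at -0.22), and NBN (6156 bases, 0.30) was among the 17 shorter. With GC content of the longest transcript the correlation over the 34 was r = -0.37 (rho = -0.36), and r = 0.00 over all genes. With mean level it was r = 0.10 over the 34 and r = -0.23 over all genes (n = 11321). Length, GC content and role are linked among so few genes, and their parts were not tested.

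**Figure D4:**
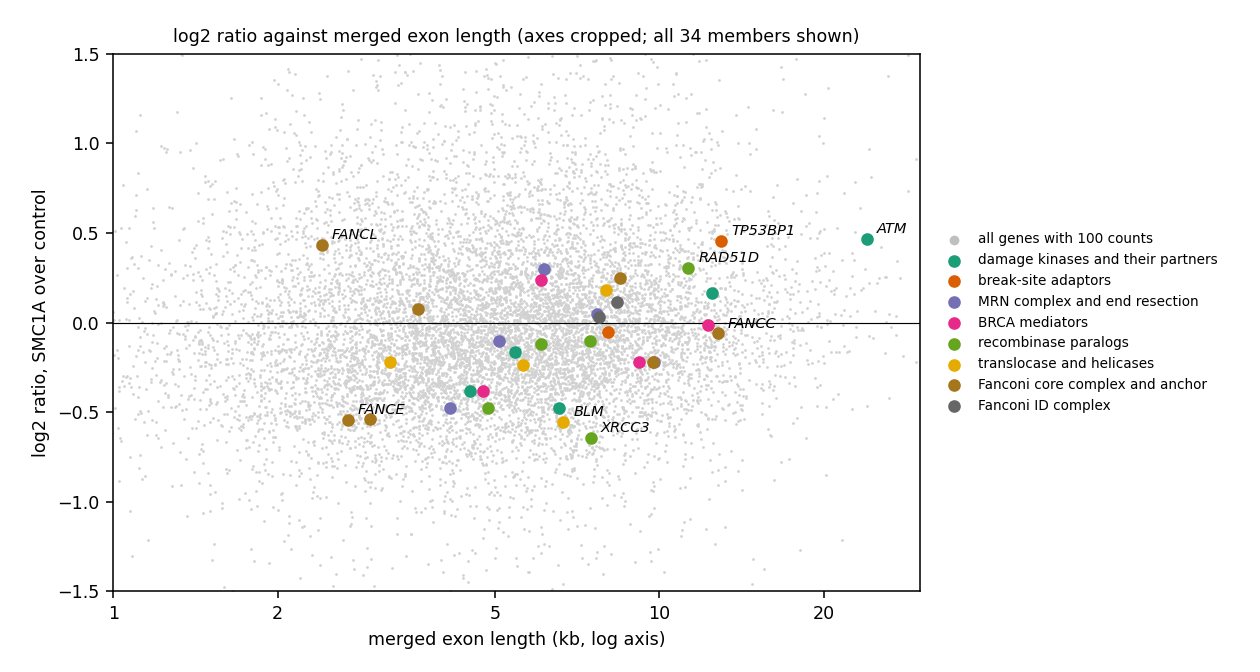
log2 ratio against merged exon length (kb, log axis) for the 34 genes, coloured by role, and for all annotated genes with 100 counts (grey, axes cropped). The longest members, ATM and TP53BP1, lie above 0 at 0.46 and 0.45, and FANCL is a short gene above 0.

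Motif letters were counted in the RefSeq windows of the 31 members that had an entry; WRN, NBN and FANCI were not among them. An E2F match stood in 16 of 31 (51.6%), against 21.9% of the 8844 windows of genes with 100 counts and 13.1% of all 27305 windows. EXO1, BARD1, XRCC2, XRCC3, BLM, FANCL and FANCD2 were among the 16. Their median log2 ratio was -0.14, from -0.65 to 0.43, and that of the 15 without a match -0.10, from -0.47 to 0.46, so both sets covered nearly the same range. A CCAAT match stood in 15 of 31 (48.4%; 37.6% of the windows of genes with 100 counts), with a median ratio of -0.22, against -0.08 for the 16 without. An ETS match stood in 10 of 31 (32.3%; 22.1%), with a median of 0.08 against -0.16 for the 21 without. TTTGAA stood in 4, ATM, MDC1, BRIP1 and FANCC (12.9%; 9.42%). The motifs can stand in the same window, and no test was made of these medians.

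Of 51 further checkpoint, recombination and Fanconi genes with 100 counts, 0 passed 2-fold (background 5.11% upward and 2.32% downward). At least 25% higher were 5 (9.80%; background 21.9%) and at least 20% lower 8 (15.7%; background 24.5%). Their median was -0.10, equal to that of the 34 to 2 decimals. SHLD2 and SHLD1, subunits of the shieldin complex that acts with TP53BP1 to protect ends, were lowest, at 80.1 and 52.5 CPM (log2 ratio -0.61) and at 5.98 and 3.97 CPM (-0.59, on 105 and 70 counts). The other 6 at least 20% lower were RFWD3 (-0.53), RIF1 (-0.47), PAXIP1 (-0.38), RAD52 (-0.35), RPA2 (-0.34) and MAD2L2 (-0.34), of which RIF1 and MAD2L2 also act in end protection. Highest were FAAP24, the partner of FANCM, at 4.96 and 8.28 CPM (log2 ratio 0.73, on 87 and 146 counts) and RMI2, of the BLM complex, at 25.9 and 35.0 CPM (0.43). The others at least 25% higher, SFR1, ETAA1 and RECQL, had ratios of 0.34, 0.33 and 0.33.

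The competing pathway of end joining had a median of -0.30 over 10 genes. Of these, 1 passed the upper limit of 25% (10%; background 21.9%) and 5 the lower limit of 20% (50%; background 24.5%). PAXX was at -0.64 and PRKDC, the catalytic subunit of the DNA-dependent kinase, at 1474 and 1036 CPM (log2 ratio -0.51, interval -0.54 to -0.48). POLL, NHEJ1 and XRCC6, chosen with their values in view, were at -0.41, -0.33 and -0.32, and the 2 highest were POLM (0.49) and DCLRE1C (0.32). The mismatch repair genes had a median of -0.07 over 7 genes, with 0 past the upper and 2 (28.6%) past the lower limit. PMS1 was at -0.34, PMS2 at -0.01 and MSH3 at 0.04, and the median and the PMS2 value lie within the shift that scaling by totals gives.

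Nucleotide excision repair genes had a median of -0.14 over 20 genes. Of these, 4 passed the upper limit (20%; background 21.9%) and 6 the lower (30%; background 24.5%), both near the background. ERCC1 was at 29.6 CPM under the control guide against 58.2 CPM under the SMC1A guide (log2 ratio 0.98, interval 0.82 to 1.13), just short of 2-fold, and DDB2, also a p53 target, was at 0.83. ERCC5 and UVSSA, chosen with their values in view, were at 0.64 and 0.42. The TFIIH genes GTF2H3 and GTF2H2 were at -0.68 and -0.49. Base excision and strand-break repair genes had a median of -0.23 over 23 genes, with 0 past the upper and 8 (34.8%) past the lower limit. UNG (-0.73) and NTHL1 (-0.53) were lowest, and XRCC1 was at 0.30.

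Many recombination genes are transcribed in S phase, so cell cycle lists are given beside them. Of 32 S-phase genes (none among the 34) 1 passed the upper limit (3.13%; background 21.9%) and 12 the lower (37.5%; background 24.5%). Their median was -0.24. MCM2 and MCM4, subunits of the replicative helicase, were both at -0.58, and HELLS and UBR7 at 0.50 and 0.11. Of 48 G2/M genes 6 passed the upper limit (12.5%) and 2 the lower (4.17%), both below the background. Their median was 0.02, from BUB1 (-0.53) and RANGAP1 (-0.39) to KIF11 (0.57) and CENPE (0.67). The median of the 34 (-0.10) lay between the medians of the 2 lists, as did that of all genes with 100 counts (-0.05), so this place is not particular to the 34. The lower members EXO1 and BLM are known S-phase genes, and BRIP1, another, was above 0. The part of the cell cycle in these ratios was not tested.

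p53 target genes, a readout of damage signalling, had a median of 0.35 over 17 genes. Of these, 9 passed the upper limit (52.9%; background 21.9%) and 2 the lower (11.8%; background 24.5%). At least 2-fold higher were 3 (17.6%; background 5.11%). Past 2-fold were CDKN1A, which encodes the inhibitor p21, at 6.50 and 22.3 CPM (log2 ratio 1.77), BTG2 at 54.2 and 159.4 CPM (1.56) and TP53INP1, chosen with its value in view, on 58 and 168 counts (1.51). BBC3, a gene of apoptosis, and AEN, a nuclease gene, were at -0.73 and -0.64.

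**Figure D5:**
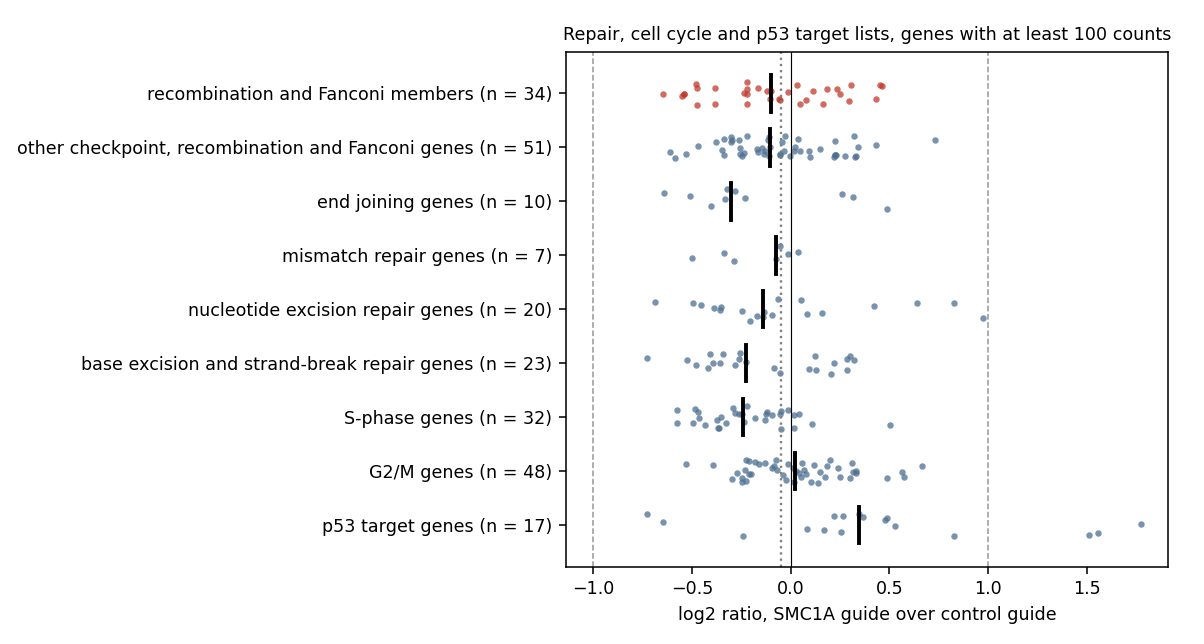
log2 ratios of the 34 genes (top) and of 8 further lists, each point a gene with at least 100 counts and each bar the list's median, with the 2-fold limits dashed and the median of all genes dotted. The 34 genes lie within 2-fold around -0.10, the S-phase genes around -0.24, and 3 p53 targets lie past 2-fold.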

How the data were processed

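RNA was measured in 2 libraries, 1 per guide. Estimated counts, rounded to whole numbers and unscaled, are what the authors deposited, in 1 table with a row per gene. The tools named, per the submitters' processing notes, are Salmon 1.10.1, STAR 2.7.10a and DESeq2 1.42.1, with hg38 (GRCh38). The sources used here give neither their roles nor the gene models. Salmon divides reads that match several transcripts, so counts of overlapping genes and near copies depend on that division. Symbols came from a gene-name table that matched all 62700 Ensembl rows. The other 2 rows are reporters (0.0628% and 0.0999% of counts). They stayed in the library totals but are not described.

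Library sizes were scaled with TMM (edgeR 4.0.16, R 4.3.3) over the whole table. log2 ratios used edgeR's formula with a prior count of 1, and intervals are Clopper-Pearson 95% intervals of the count ratio (Python 3.11.15, scipy 1.17.1), log-normal for pairs. They cover counting error only, since each guide had 1 library. The reads carry no molecular identifiers, and copies of 1 molecule may be counted more than once. The intervals may therefore be too narrow even for counting error. Coordinates and exon lengths came from GENCODE 29 (GRCh38), which shares the build of the notes and has 97.9% of the genes with 100 counts, but may differ from the models used for counting. Called means past 2-fold, or 25% higher or 20% lower, among genes with at least 100 counts. All 34 members are named, with the 2 highest and 2 lowest genes of each list; exceptions are marked, and a few that the rule picks are not reported here. The ratio and its interval were tested on simulated Poisson counts, with the scaled library sizes kept fixed. That test covers neither the scaling nor spread beyond counting error. Other scalings (size factors of DESeq2 1.42.0 among them), prior counts, filters and removed trends were tried as alternatives. The members and lists were chosen with earlier results of these data known.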

Additional observations from a re-analysis of the deposited data

How the results depend on the processing

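No paired analysis was possible because each guide had 1 library, and for the same reason no replicate could be left out. Scaling by library totals moved the median log2 ratio of the 34 genes from -0.10 to 0.027 and the number at least 25% higher from 3 to 7; it raised every ratio by nearly the same amount. That number was 5 with the trend with expression level removed. It was 0 without the 12 members that overlap another gene, a setting chosen after seeing the data that leaves out ATM, TP53BP1 and FANCL themselves. Removal of trends with exon length and GC content, also chosen after seeing the data, took ATM to 0.30 and EXO1 to -0.38. The count of genes at least 20% lower (9) stayed between 6 and 9 under the settings run, and the count past 2-fold stayed at 0. The sign turned by library totals for RBBP8, RAD51C, MDC1, BRCA2, FANCC and RAD51B, whose intervals all span 0; it also turned for MDC1 (0.13) and BRCA2 (0.06) with the trend with expression level removed, and for BRCA2 (0.0028) by the upper quartile. Library totals moved 18 members past their counting interval and the removed expression trend 12. The other 28 members kept their sign under every setting run on single genes. Depth limits RAD51B and FANCF most, with 180 and 426 counts over both libraries.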
